A study of Homo sapiens with 96 samples.

Results

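Splicing was compared between A549 cells exposed to GSK591 and MS023 together for 4 days and A549 cells exposed to the same pair of inhibitors for 2 days. A549 is an established cell line that was derived from an adenocarcinoma of the lung. The comparison rests on 6 of the 96 samples of the series, which are 3 poly(A)-RNA seq libraries at each time, each from cells given 1 µM GSK591 with 1 µM MS023. The libraries were chosen by treatment and day alone, with no measured value. For every alternative splicing event that was listed at both times with the same type, chromosome, strand, and coordinates, the reads of the 2-day and the 4-day libraries were set against each other. This gave 112873 events, from 139307 listed at 2 days and 138571 listed at 4 days. Libraries of 4-day DMSO (0.01%) and of 1 µM GSK591 alone or 1 µM MS023 alone at 2 and 4 days, 3 each, are given beside the results. No 2-day DMSO library was analysed here, so exposure to the inhibitors and time in culture cannot be told apart. The model is 1 cell line in which the enzymes were inhibited rather than deleted.

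Protein arginine methyltransferases (PRMTs) attach methyl groups to arginine residues. GSK591 inhibits PRMT5, the main enzyme that makes symmetric dimethylarginine, and MS023 inhibits the Type I enzymes, which make asymmetric dimethylarginine. Sm proteins of the spliceosome, SR proteins, and hnRNPs are known substrates. Introns that remain in polyadenylated RNA (retained introns, RI) tend to keep a transcript in the nucleus or expose it to decay. A skipped exon (SE) is an exon that is either kept or left out, mutually exclusive exons (MXE) replace each other, and events of type A3SS or A5SS move an exon end through a choice between neighbouring acceptors or donors.

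The value reported for an event is Ψ, the share of transcripts that hold the alternative segment, computed from inclusion and skipping reads divided by their effective lengths. ΔΨ is Ψ at 4 days minus Ψ at 2 days, and its error is the standard error of this difference of means (n = 3 and 3). Libraries are written a, b, and c in the order of the tables, which carries no meaning across groups. Depth ranged from 3201340 to 4197016 reads on RI and from 42564072 to 55388020 on SE in the 6 libraries. Reads on events of the epithelial genes KRT7, KRT8, and KRT18 numbered at least 16138 in each library, and EPCAM had 25 to 44, CDH1 506 to 953, and EGFR 817 to 2210. No event of PTPRC, CD3E, PECAM1, or CDH5 was matched, and CD79A had 19 to 43 reads. In RNA from whole cultures, a change of Ψ in every cell and a change in which cells are present cannot be told apart. The labels do not say that libraries came from separate cultures, so the spread between these libraries may be technical. The main test of events draws the dispersion of each event toward that of all events of its type. Its p-values therefore rest on read numbers and on this shared dispersion, and not only on the spread between an event's own libraries.

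The splice sites of the introns that changed most are shown first, read 5′ to 3′ from GRCh37, which is hg19, because the donor and acceptor are what the spliceosome reads in these introns. Capitals mark intron bases and lower case marks exon bases. The introns whose Ψ was higher at 4 days are the following.
APC2 donor (chr19:1457240-1457248, plus strand): gcgGTGAGT
GSAP donor (chr7:76959550-76959558, minus strand): gagGTATGA
PABPC4 donor (chr1:40027739-40027747, minus strand): aagGTGAGC
C1orf63 donor (chr1:25571635-25571643, minus strand): gaaGTAAGT
SIRT7 donor (chr17:79873310-79873318, minus strand): ctgGTAAGA
PLEKHH2 donor (chr2:43937712-43937720, plus strand): cagGTACTT
APC2 acceptor (chr19:1457944-1457966, plus strand): TCTGGTCCCTGTGCCCACAGccc
GSAP acceptor (chr7:76958706-76958728, minus strand): TGACGTGTTCTCACTCCTAGaaa
PABPC4 acceptor (chr1:40026792-40026814, minus strand): GTTGGTGCTTTTCTTTACAGgat
C1orf63 acceptor (chr1:25570122-25570144, minus strand): CTTTTTCTTAACCTGTCTAGctg
SIRT7 acceptor (chr17:79872404-79872426, minus strand): CTGTGCCCTCTTGCCTCTAGgtc
PLEKHH2 acceptor (chr2:43939344-43939366, plus strand): CCTTTCTCGTTGCATTCTAGttg

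The introns whose Ψ was lower at 4 days are the following. GAS5 has a donor that is used with either of a pair of acceptors, and both introns fell.
N6AMT1 donor (chr21:30248628-30248636, minus strand): tagGTAACA
RTEL1-TNFRSF6B donor (chr20:62327205-62327213, plus strand): ccaGTGAGT
CARS2 donor (chr13:111296406-111296414, minus strand): acaGTAAGA
DNASE1 donor (chr16:3707110-3707118, plus strand): gagGTGAGG
COMMD4 donor (chr15:75631443-75631451, plus strand): aagGTACGG
N6AMT1 acceptor (chr21:30245059-30245081, minus strand): ATCTCATCTTCTGTCCTCAGatg
RTEL1-TNFRSF6B acceptor (chr20:62328093-62328115, plus strand): CCGCGCTCTCCCTGCTCCAGcaa
CARS2 acceptor (chr13:111294866-111294888, minus strand): CCGCGCCCTGCTGGCTTCAGtac
DNASE1 acceptor (chr16:3707168-3707190, plus strand): CAGGCAGCGTTTCCTGGTAGgac
COMMD4 acceptor (chr15:75632023-75632045, plus strand): CCACCCACCCCATCTCACAGtga
GAS5 donor shared by both introns (chr1:173833807-173833815, minus strand): cagGTTAGT
GAS5 acceptor of the 168 bp intron (chr1:173833642-173833664, minus strand): TATTTTTCATCTTCAAACAGgca
GAS5 acceptor of the 370 bp intron (chr1:173833440-173833462, minus strand): TATGTTGGCTTCGCTTTCAGggt

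Between 2 and 4 days of co-treatment, most of the RI and SE that were called were higher at 4 days, and the called introns of the snoRNA host genes GAS5 and SNHG1 were lower. Of 3785 RI tested, 246 were called (6.50%), with 170 higher (4.49%) and 76 lower (2.01%) at 4 days. Of 59125 SE tested, 1279 were called (2.16%), with 938 higher (1.59%) and 341 lower (0.577%). Fewer were called of the other types, with 185 of 16024 MXE (1.15%), 76 of 5531 A3SS (1.37%), and 68 of 3583 A5SS (1.90%). MXE calls were close to evenly split, with 99 higher (0.618%) and 86 lower (0.537%). A3SS had 43 higher (0.777%) and 33 lower (0.597%), and A5SS had 45 higher (1.26%) and 23 lower (0.642%). Without 2-day library c, A3SS had 14 higher and 16 lower. In all, 1854 of 88048 events (2.11%) were called, in 1177 of 10416 genes. Of these, 1295 were higher and 559 lower, which is the balance to set beside the counts of the gene lists below. EEF1D, GAS5, and HNRNPC had called events of at least 4 types each. A call is an adjusted p under 0.05 in a quasi-binomial test with Benjamini-Hochberg adjustment within the type, and every adjusted p below is from this test unless another is named.

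**Figure D1:**
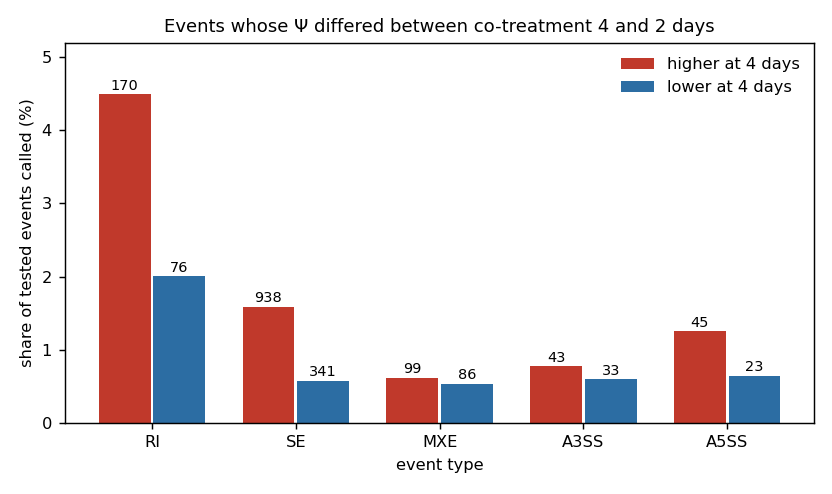
Bars give the share of tested events called higher (red) or lower (blue) at 4 days than at 2 days of co-treatment, in percent on the vertical axis, for the 5 event types on the horizontal axis, with the number of events above each bar. RI had the highest share, with 170 higher and 76 lower, and higher outnumbered lower in each type with all 6 libraries.

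The changes were mostly modest in size. A called difference of at least 0.1 was found for 66 RI (1.74%) and 469 SE (0.793%). The median ΔΨ was 0.0529 for the RI called higher and -0.0665 for those called lower, and 0.0714 and -0.0742 for SE. The 2 groups of libraries did not overlap for 161 of the 170 RI called higher and for 70 of the 76 called lower, where 20.0% of all tested RI did not overlap. For SE, 857 of 938 and 320 of 341 did not overlap, against 11.6% of those tested. The calls depend on the model. With limma on the log2 odds of each library, 0 events of any type passed, and 479 RI and 4398 SE had an unadjusted p under 0.05, compared with 677 and 7493 in the quasi-binomial test. Leaving out 1 library gave 144 to 217 called RI, the fewest without 2-day library b. For SE the counts were 653, 541, and 704 without 2-day libraries a, b, and c, and 896 to 988 without a 4-day library.

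Over all tested events the shift was small. The median Ψ of RI was 0.251, 0.246, and 0.238 in the 2-day libraries and 0.247, 0.252, and 0.248 in the 4-day libraries, and the groups overlapped (p = 0.4 in a two-sided exact permutation test over libraries). The median Ψ of SE was 0.9781, 0.9778, and 0.9780 at 2 days and 0.9820, 0.9823, and 0.9831 at 4 days. Here every 4-day library was above every 2-day library, by 0.00451 on average (p = 0.1 in the same exact permutation test, its lower limit with 3 libraries a group). Without 2-day library a, the difference of the RI medians was 0.00639 instead of 0.00375, and it was 0.000655 without 2-day library c and 0.00208 without 4-day library b.

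The called events stood at different places relative to DMSO. The 170 RI called higher had a median Ψ of 0.0651 in 4-day DMSO, 0.112 at 2 days of co-treatment, and 0.178 at 4 days. The 76 RI called lower had medians of 0.158, 0.198, and 0.137. The 938 SE called higher had a median of 0.866 in DMSO, 0.770 at 2 days, and 0.912 at 4 days, so the 4-day median was above DMSO and the 2-day median below it. The 341 SE called lower went from 0.851 in DMSO to 0.706 and 0.541. These medians describe events chosen by the same co-treatment libraries and carry no test.

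Among called events with at least 50 reads in each of the 6 libraries and groups that did not overlap, the largest increases of retention were in introns of APC2, GSAP, PABPC4, C1orf63, SIRT7, and PLEKHH2. Intron 20 of GSAP, which encodes gamma-secretase activating protein (chr7:76958709-76959555), had Ψ of 0.356, 0.352, and 0.418 at 2 days and 0.654, 0.731, and 0.683 at 4 days (ΔΨ = 0.314 ± 0.0311, adjusted p = 0.000414). Every 4-day library lay well above every 2-day library, which were close to DMSO (0.367 ± 0.0716). In SIRT7, a deacetylase of the nucleolus, a 909 bp segment (chr17:79872407-79873315) had Ψ of 0.508, 0.467, and 0.389 at 2 days and 0.794, 0.685, and 0.690 at 4 days (ΔΨ = 0.269 ± 0.0498, adjusted p = 1.84e-11). The DMSO value was 0.689 ± 0.0385, so the 4-day level was at that of DMSO and the 2-day level was below it. C1orf63, named RSRP1 in the GENCODE annotation, encodes an arginine- and serine-rich protein. Its intron 3 (chr1:25570125-25571640) had Ψ of 0.525, 0.588, and 0.403 and then 0.778, 0.863, and 0.724 (ΔΨ = 0.283 ± 0.0675, adjusted p = 0.00197), with DMSO again at the level of 4 days (0.832 ± 0.0391). Lack of overlap between the libraries of the 2 days was part of the rule that picked these introns.

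The remaining introns with the largest increases varied more between libraries. Intron 9 of APC2, a relative of the tumour suppressor APC (chr19:1457243-1457963), had Ψ of 0.327, 0.311, and 0.414 at 2 days and 0.819, 0.758, and 0.545 at 4 days (ΔΨ = 0.357 ± 0.0888, adjusted p = 0.00388). A single DMSO library was at 0.831 and the other two were at 0.389 and 0.390. In PABPC4, a cytoplasmic poly(A)-binding protein (chr1:40026795-40027744), Ψ was 0.416, 0.543, and 0.254 at 2 days and 0.626, 0.746, and 0.736 at 4 days (ΔΨ = 0.298 ± 0.0919, adjusted p = 0.0166). Intron 14 of PLEKHH2 (chr2:43937715-43939363) had 0.491, 0.332, and 0.297 at 2 days and 0.719, 0.577, and 0.587 at 4 days (ΔΨ = 0.254 ± 0.0750, adjusted p = 0.00719). The call of each of these 3 introns was lost when 1 library was left out. The highest values were adjusted p = 0.0566 without 4-day library a and also over 0.05 without 2-day b for APC2, adjusted p = 0.131 without 2-day library c and also over 0.05 without 2-day a, 4-day b, and 4-day c for PABPC4, and adjusted p = 0.0975 without 2-day library b and also over 0.05 without 2-day c and 4-day a for PLEKHH2. The segments of SIRT7 and PABPC4 are not introns of any transcript in GENCODE v44lift37, and the others lie in coding regions.

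By the same rule, the largest decreases of retention were in introns of N6AMT1, RTEL1-TNFRSF6B, CARS2, DNASE1, GAS5, and COMMD4. N6AMT1 encodes a methyltransferase that acts on a translation release factor. Its intron 6 of the transcript N6AMT1-203 (chr21:30245062-30248633) had Ψ of 0.891, 0.712, and 0.828 at 2 days and 0.461, 0.592, and 0.533 at 4 days (ΔΨ = -0.281 ± 0.0649, adjusted p = 0.0152). The DMSO value was 0.569 ± 0.00663, so the 2-day libraries stood above DMSO and the 4-day libraries near it. RTEL1-TNFRSF6B, a readthrough of a helicase gene and a decoy receptor gene (chr20:62327208-62328112), went from 0.864, 0.846, and 0.908 to 0.692, 0.513, and 0.621 (ΔΨ = -0.264 ± 0.0550, adjusted p = 0.00351). DMSO was at 0.751 ± 0.0694. COMMD4, a COMM domain protein (chr15:75631446-75632042), went from 0.598, 0.510, and 0.451 to 0.384, 0.349, and 0.206 (ΔΨ = -0.207 ± 0.0693, adjusted p = 0.000287), and both groups were below DMSO (0.894 ± 0.0528). The other introns of this group were likewise lower in each 4-day library. In CARS2, the mitochondrial cysteinyl-tRNA synthetase (chr13:111294869-111296411), Ψ was 0.417, 0.565, and 0.502 and then 0.324, 0.257, and 0.197 (ΔΨ = -0.235 ± 0.0566, adjusted p = 0.00707). Intron 6 of DNASE1, a secreted nuclease (chr16:3707113-3707187), had 0.976, 0.853, and 0.852 and then 0.705, 0.672, and 0.664 (ΔΨ = -0.214 ± 0.0431, adjusted p = 0.0209). Groups did not overlap in any of them, as the rule required. The introns of N6AMT1, CARS2, and RTEL1-TNFRSF6B lie in 3′ UTRs of the annotated transcripts that contain them, that of DNASE1 lies in a coding region, and that of COMMD4 is not annotated. Calls were lost on leaving out 1 library, with adjusted p = 0.130 without 4-day library a and also over 0.05 without 2-day a and 2-day c for N6AMT1, adjusted p = 0.0577 without 4-day library b for RTEL1-TNFRSF6B, adjusted p = 0.0517 without 4-day library c for COMMD4, adjusted p = 0.142 without 2-day library b and also over 0.05 without 4-day c for CARS2, and adjusted p = 0.171 without 2-day library a and also over 0.05 without 2-day b, 4-day b, and 4-day c for DNASE1.

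**Figure D2:**
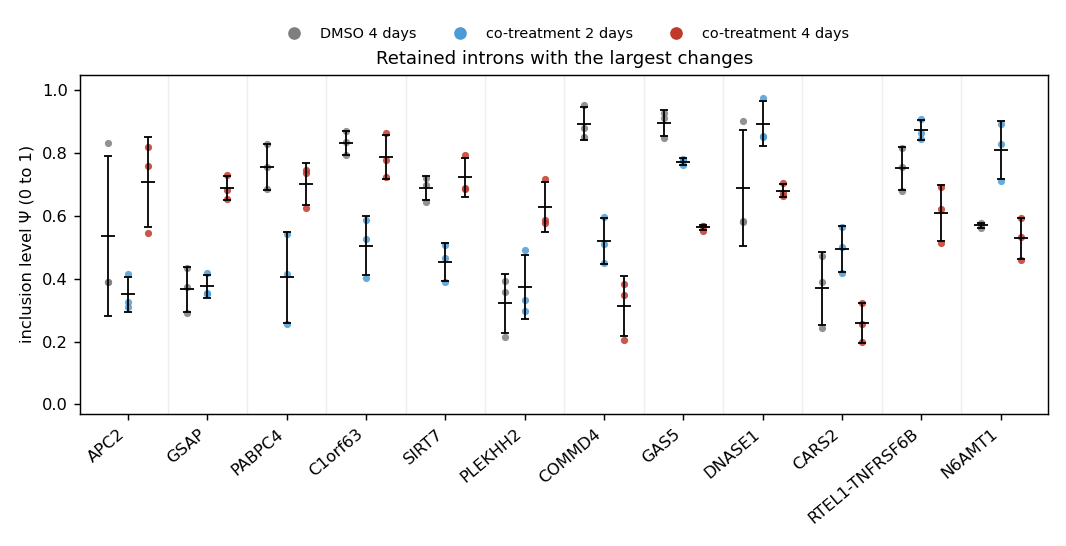
Ψ (vertical axis, 0 to 1) of the 6 RI with the largest increases, at left, and the 6 with the largest decreases, at right, on the horizontal axis. Points are single libraries of DMSO 4 days (grey), co-treatment 2 days (blue), and co-treatment 4 days (red), and black bars are the mean ± SD of 3 libraries. The red and blue points of each intron do not overlap, as required by the rule that picked them.

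GAS5, a non-coding RNA gene whose introns hold C/D box snoRNAs and whose spliced RNA is short-lived in growing cells, changed in 1 direction. Of its 10 tested introns, 10 had a negative ΔΨ, 8 were called, and 8 had groups that did not overlap. Of all tested RI, 54.6% had a positive ΔΨ, 6.50% were called, and 20.0% did not overlap. Several of the 10 GAS5 entries overlap each other and share reads, so they are not 10 separate introns. The 370 bp intron whose splice sites are given above (chr1:173833443-173833812) had Ψ of 0.762, 0.778, and 0.780 at 2 days and 0.568, 0.553, and 0.569 at 4 days (ΔΨ = -0.210 ± 0.00759, adjusted p = 2.2e-08). DMSO was higher than both (0.896 ± 0.0423). The RT-qPCR primers of the study span the donor that the 370 bp intron shares with a 168 bp intron. The 168 bp intron (chr1:173833645-173833812) had 0.287, 0.281, and 0.278 and then 0.136, 0.184, and 0.146 (ΔΨ = -0.127 ± 0.0148, adjusted p = 6.16e-17). These introns overlap and share reads, so they are not separate pieces of evidence, and the calls of both held when any 1 library was left out. The other called introns fell too, with ΔΨ between -0.0880 and -0.0293.

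Other snoRNA host genes were less uniform. SNHG1 had 3 tested introns, all 3 with a negative ΔΨ, of which 2 were called. Its intron at chr11:62622411-62622604 went from 0.519, 0.495, and 0.528 to 0.368, 0.469, and 0.382 (adjusted p = 0.0352), and that at chr11:62621306-62621489 went from 0.134, 0.138, and 0.118 to 0.0840, 0.0954, and 0.0791 (adjusted p = 3.4e-05). Both SNHG1 introns were picked out after their values were seen. No intron of SNHG5, SNHG11, SNHG12, or SNHG17 passed, with ΔΨ from -0.0678 to 0.0747. Over the snoRNA host list, 10 of 19 RI were called and 10 were lower, with a median ΔΨ of -0.0364, against 2.01% called lower and a median of 0.00164 over all RI. GAS5 supplied 10 of the 19 tested RI and 8 of the called RI, and SNHG1 supplied the other 2. These list values therefore describe mainly GAS5 and not snoRNA host genes in general. Of the SE of this list, 7 of 111 were called, 6 of them higher, where 2.16% of all SE were called and 1.59% were higher, and the median ΔΨ of these 111 SE was -0.000176. Over all types, 24 of its 245 events were called (9.80%, against 2.11% of all events), 9 higher and 15 lower.

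Of the introns that the RT-qPCR primers span, those given here for ANKZF1 and NOP2 did not pass. The ANKZF1 primers span 2 RI entries, of which the shorter is given. Intron 9 of ANKZF1, a gene of ribosome quality control (chr2:220099011-220099547), had Ψ of 0.675, 0.647, and 0.713 at 2 days and 0.795, 0.686, and 0.795 at 4 days, and the groups overlapped (ΔΨ = 0.0800 ± 0.0411, adjusted p = 0.257). Intron 14 of NOP2, a nucleolar RNA methyltransferase (chr12:6669493-6669612), had 0.434, 0.475, and 0.494 and then 0.463, 0.511, and 0.523 (ΔΨ = 0.0315 ± 0.0255, adjusted p = 0.467). Both groups were above DMSO in each intron, which had 0.360 ± 0.0730 in ANKZF1 and 0.186 ± 0.0233 in NOP2. A difference was not detectable with 3 libraries a group, which does not show that the levels were equal.

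Introns called in either direction had longer medians than the tested introns. The median length of those called higher was 421 bp (interquartile range 168.5 to 1291.5), those called lower had 436.5 bp, and all 3777 tested introns of at least 30 bp had 254 bp. Of introns over 1000 bp, 52 of 510 were called higher (10.2%), against 25 of 764 introns of 100 bp or less (3.27%). The longer introns also had more reads, with a median of 270 in the lowest library against 172, and the part of read number in this difference was not tested. The third intron base was G in 56 of the 170 introns called higher (32.9%), 38 of the 76 called lower, and 1776 of the 3777 tested (47.0%). GC content in the same order had medians of 49.7%, 52.7%, and 57.0%. The share of C in the polypyrimidine stretch before the acceptor was 33.5%, 37.0%, and 36.7%.

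RI already high in DMSO seldom changed. Of 1033 RI with a DMSO Ψ over 0.7, 9 were called higher (0.871%) and 7 lower (0.678%). Of 735 RI with a DMSO Ψ of 0.1 to 0.3, 48 were called higher (6.53%) and 30 lower (4.08%).

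By the same rule of reads and overlap, the largest increases of exon inclusion were in PRRC2C, FUT8, RCOR3, MATR3, and FIGNL1. Without that rule, ΔΨ of the SE called higher reached 0.532. In PRRC2C, a proline-rich coiled-coil protein, a 49 nt exon (chr1:171560291-171560339) had Ψ of 0.266, 0.266, and 0.215 at 2 days and 0.674, 0.570, and 0.443 at 4 days (ΔΨ = 0.314 ± 0.0688, adjusted p = 7.31e-10). The 2-day libraries were at the level of DMSO (0.288 ± 0.0202) and every 4-day library was above. FUT8 encodes the enzyme of core fucosylation of N-glycans. Its 102 nt exon 4 (chr14:66083808-66083909) had 0.317, 0.303, and 0.292 at 2 days and 0.575, 0.638, and 0.547 at 4 days (ΔΨ = 0.283 ± 0.0276, adjusted p = 0.00038), compared with 0.0747 ± 0.0197 in DMSO. FUT8 thus stood in the same order in all libraries, with DMSO lowest and 4 days highest. In RCOR3, a corepressor of the CoREST family, a 133 nt exon (chr1:211485697-211485829) had 0.225, 0.279, and 0.340 and then 0.603, 0.514, and 0.569 (ΔΨ = 0.281 ± 0.0420, adjusted p = 0.000215).

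The 170 nt exon listed under MATR3, a nuclear RNA-binding protein (chr5:138614016-138614185), is annotated as an exon of SNHG4, which overlaps it. Ψ was 0.710, 0.658, and 0.713 at 2 days and 0.973, 0.963, and 0.972 at 4 days (ΔΨ = 0.276 ± 0.0180, adjusted p = 0.000242), nearly full inclusion in each 4-day library. In FIGNL1, an ATPase of homologous recombination, a 606 nt exon of the 5′ UTR (chr7:50516816-50517421) had 0.643, 0.687, and 0.787 and then 0.937, 1.00, and 1.00 (ΔΨ = 0.274 ± 0.0474, adjusted p = 0.00473). The call of FIGNL1 was lost in some of the fits that left out 1 library (adjusted p = 0.0639 without 4-day library b and also over 0.05 without 2-day a and 2-day b). The others of these exons kept their calls.

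The largest decreases of exon inclusion by that rule were in BAG6, CACNA1H, KDM1B, CLSTN1, and CIZ1, and ΔΨ of all SE called lower reached -0.520. In CLSTN1, calsyntenin 1, a carrier of kinesin cargo, the 57 nt exon 11 (chr1:9797556-9797612) had Ψ of 0.370, 0.335, and 0.322 at 2 days and 0.0733, 0.0655, and 0.114 at 4 days (ΔΨ = -0.258 ± 0.0206, adjusted p = 1.05e-30). DMSO was at 0.697 ± 0.0186, so the exon went from largely included in DMSO to mostly skipped at 4 days. CIZ1, a zinc finger protein of DNA replication, lost inclusion of its 72 nt exon 4 (chr9:130950142-130950213), from 0.563, 0.589, and 0.637 to 0.400, 0.370, and 0.299 (ΔΨ = -0.240 ± 0.0370, adjusted p = 7.18e-12), with DMSO at 0.851 ± 0.00606. In BAG6, a chaperone of membrane proteins, the 108 nt exon 12 (chr6:31612084-31612191) went from 0.889, 0.879, and 0.936 to 0.575, 0.579, and 0.687 (ΔΨ = -0.288 ± 0.0408, adjusted p = 5.99e-05), with DMSO at 0.950 ± 0.0176. These exons were stepwise lower from DMSO to 2 days to 4 days, in means, and each has a length that is a multiple of 3. The calls of all 3 held without any 1 library.

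The other decreases were less stable. Exon 6 of CACNA1H, a T-type calcium channel (chr16:1248615-1248774), went from 0.932, 0.905, and 0.935 to 0.791, 0.659, and 0.518 (ΔΨ = -0.268 ± 0.0793, adjusted p = 0.00627). An exon of KDM1B, a histone demethylase (chr6:18191428-18191612), went from 0.700, 0.741, and 0.868 to 0.510, 0.487, and 0.530 (ΔΨ = -0.261 ± 0.0522, adjusted p = 0.0343). The calls of CACNA1H and KDM1B did not hold when 1 library was left out. CACNA1H had adjusted p = 0.115 without 2-day library c, and was also over 0.05 without 2-day a, 2-day b, and 4-day c. KDM1B had adjusted p = 0.233 without 2-day library c and was over 0.05 in all 6 fits.

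Changes of exons were most frequent at intermediate inclusion. Of 2963 SE with a DMSO Ψ of 0.1 to 0.5, 149 were called higher (5.03%) and 68 lower (2.29%). Of 5540 SE with a DMSO Ψ of 0.5 to 0.9, 215 were called higher (3.88%) and 66 lower (1.19%), and their median ΔΨ was 0.0223, against 0.00146 over all SE. Of 44346 SE with a DMSO Ψ over 0.9, 430 were called higher (0.970%) and 160 lower (0.361%). Microexons of 27 nt or less had the opposite balance, with 9 of 556 higher (1.62%) and 16 lower (2.88%), against 1.59% and 0.577% of all SE. Among distinct exons, 47.6% of those called higher and 51.4% of those called lower had a length that is a multiple of 3, compared with 41.3% of those tested. The shorter flanking intron had a median of 666 bp beside exons called higher, 1078 bp beside those called lower, and 1119 bp over all.

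Genes of splicing factors were among those that changed. SR proteins and the related TRA2 proteins promote exon inclusion and limit their own amounts through poison exons, whose inclusion exposes the RNA to nonsense-mediated decay. Of 81 tested events in 11 genes, 9 were called (11.1%, against 2.11% over all events), 9 of them higher at 4 days, with a median ΔΨ of 0.00940 over the 50 SE. Of the 8 called SE, 6 belong to transcripts annotated as targets of that decay and to none annotated as protein coding. How many of the tested SE are of this kind was not determined, so this count has no share to be set against. SRSF6 changed most. Its 268 nt exon 3 (chr20:42087793-42088060) had Ψ of 0.163, 0.170, and 0.193 at 2 days and 0.300, 0.301, and 0.274 at 4 days (ΔΨ = 0.116 ± 0.0124, adjusted p = 7.12e-15), with DMSO at 0.107 ± 0.00793. The exon was in the same order in every library, with DMSO lowest.

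The other SR events were smaller, and except for SRSF4 they are named after their values were seen. A 195 nt exon of SRSF4 (chr1:29486376-29486570) went from 0.115, 0.0640, and 0.104 to 0.132, 0.220, and 0.151 (ΔΨ = 0.0737 ± 0.0310, adjusted p = 0.0249), a call lost without 1 library (adjusted p = 0.364 without 2-day library b and also over 0.05 without 2-day a, 2-day c, and 4-day b). The 312 nt exon of TRA2A (chr7:23561740-23562051) went from 0.0744, 0.0737, and 0.0574 to 0.133, 0.139, and 0.102 (ΔΨ = 0.0562, adjusted p = 6.22e-05), and the 456 nt exon 4 of SRSF3 (chr6:36567598-36568053) from 0.0253, 0.0262, and 0.0276 to 0.0463, 0.0482, and 0.0443 (ΔΨ = 0.0199, adjusted p = 2.82e-16). For each of these exons the 2-day and 4-day libraries did not overlap. In SRSF7, both the 449 nt exon (ΔΨ = 0.0298, adjusted p = 0.000394) and the intron that contains it (ΔΨ = 0.0393, adjusted p = 8.68e-06) rose, and they share reads. Exons of TRA2B (ΔΨ = 0.0231, adjusted p = 0.0165) and SRSF2 (ΔΨ = 0.0183, adjusted p = 0.0120) also rose. SRSF2 differed from the others in its 2-day level of 0.0311, which was below DMSO at 0.0794.

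**Figure D3:**
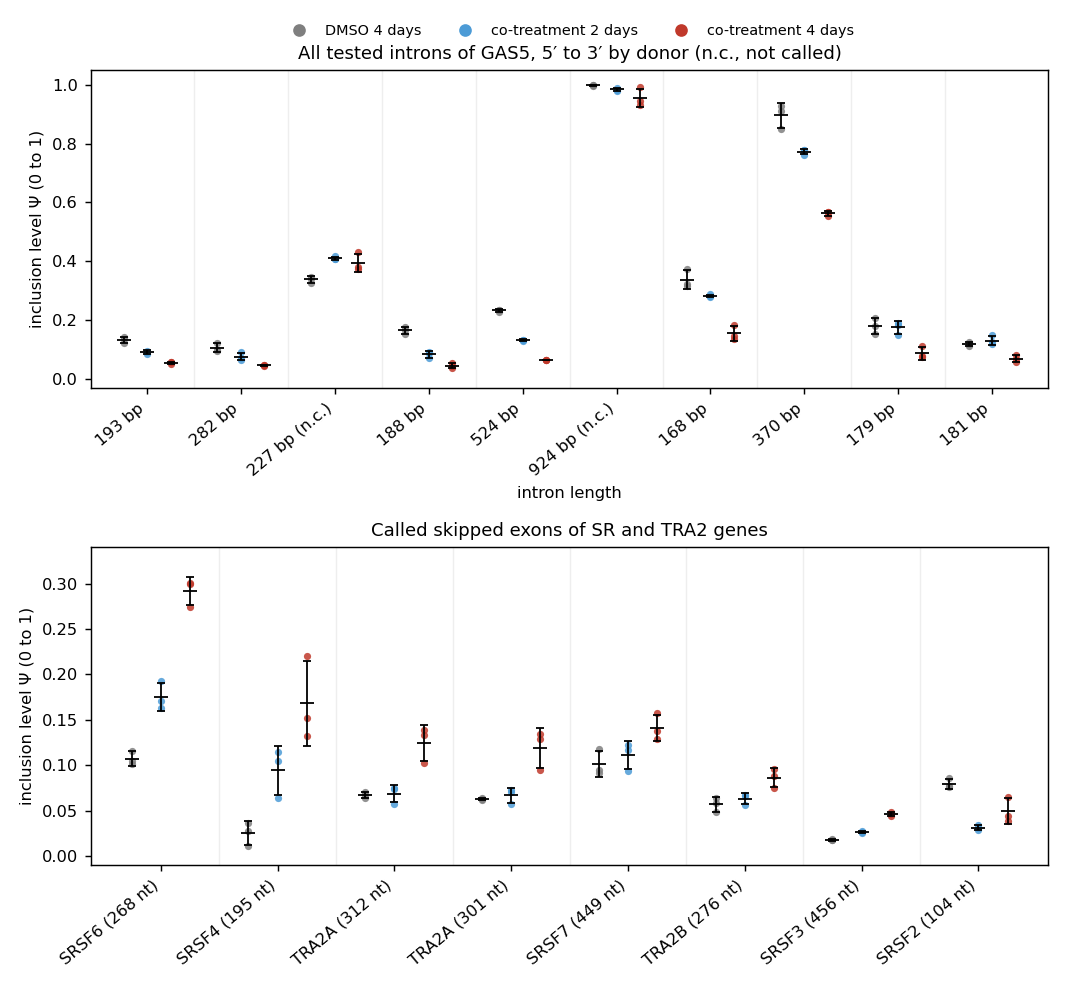
Ψ (vertical axes) of the 10 tested introns of GAS5 (upper panel, labelled by length) and of the 8 called SE of SR and TRA2 genes (lower panel, with a shorter axis), per library for DMSO 4 days (grey), co-treatment 2 days (blue), and co-treatment 4 days (red), with the mean ± SD of 3 libraries in black. The red points are below the blue points for the 8 called GAS5 introns and above them for the 8 SR and TRA2 exons.

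The hnRNPs, which often oppose SR proteins, had 28 of 255 events called (11.0%, against 2.11% of all events), 17 higher and 11 lower, so this list had no single direction. HNRNPC supplied several of the 28, and some of its entries overlap and share reads. Each of the 28 had at least 353 reads in its lowest library. The medians over all tested RI and SE were 182 and 153, and the part of read number in the share called was not tested. The 26 nt exon 2 of HNRNPC, in the 5′ UTR (chr14:21731470-21731495), had Ψ of 0.767, 0.749, and 0.783 at 2 days and 0.636, 0.654, and 0.653 at 4 days (ΔΨ = -0.119 ± 0.0116, adjusted p = 5.36e-44), below DMSO (0.826 ± 0.00361) at both times. An intron of HNRNPH3 (chr10:70097091-70098259) rose from 0.403, 0.401, and 0.359 to 0.466, 0.581, and 0.490 (ΔΨ = 0.125 ± 0.0379, adjusted p = 0.00262), with DMSO at 0.160 ± 0.0227, a call lost without 1 library (adjusted p = 0.0921 without 4-day library b). Named after their values were seen, intron 3 of HNRNPH1 rose from 0.228, 0.231, and 0.198 to 0.293, 0.302, and 0.283 (ΔΨ = 0.0738, adjusted p = 9.62e-10), and an exon of HNRNPL that belongs to a transcript annotated to decay, and to none annotated as protein coding, rose from 0.0439, 0.0409, and 0.0382 to 0.0813, 0.101, and 0.0843 (ΔΨ = 0.0477, adjusted p = 2.38e-20). Of 12 tested RI in the list, 4 were called higher and 1 lower, where 4.49% and 2.01% of all RI were.

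Components of snRNPs changed in a few events. In SNRNP70, the U1-70K protein, a 1474 nt exon whose inclusion is annotated to decay (chr19:49605371-49606844) had Ψ of 0.0328, 0.0358, and 0.0273 at 2 days and 0.0796, 0.0737, and 0.0732 at 4 days (ΔΨ = 0.0435 ± 0.00320, adjusted p = 3.69e-129). The 2-day libraries were below DMSO (0.0442 ± 0.00214) and the 4-day libraries above it. A 23 nt exon of SNRPG, a core Sm protein (chr2:70516482-70516504), rose from 0.823, 0.838, and 0.834 to 0.852, 0.852, and 0.874 (ΔΨ = 0.0276 ± 0.00867, adjusted p = 0.0360), a call lost without 1 library (adjusted p = 0.296 without 4-day library c and also over 0.05 without 2-day a, 2-day b, and 2-day c). Of the Sm core and U1 list, 4 of 106 events were called (3.77%, against 2.11% of all events), 4 of them higher, and 3 of the 4 are the same exon of SNRNP70 with different ends.

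Of the U2 snRNP and U2AF list, 10 of 175 events were called (5.71%, against 2.11% of all events), 8 of them higher. In PUF60, a partner of U2AF, a pair of overlapping exons of 84 and 87 nt rose together, one from 0.543, 0.557, and 0.508 to 0.694, 0.675, and 0.639 (ΔΨ = 0.133 ± 0.0216, adjusted p = 3.81e-08) and the other from 0.625, 0.632, and 0.596 to 0.754, 0.758, and 0.718 (ΔΨ = 0.126 ± 0.0170, adjusted p = 9.49e-10), and they share reads. U2AF1, the small subunit that reads the acceptor, has 2 exons of 67 nt that replace each other, and they were singled out after their values were seen. One (chr21:44521476-44521542) rose from 0.236, 0.225, and 0.263 to 0.326, 0.325, and 0.319 (ΔΨ = 0.0817, adjusted p = 1.3e-05) and the other (chr21:44520563-44520629) fell from 0.265, 0.283, and 0.260 to 0.160, 0.204, and 0.218 (ΔΨ = -0.0755, adjusted p = 6.05e-06). In DMSO their means were 0.136 and 0.548, so both moved further from DMSO.

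Of the kinases that phosphorylate SR proteins, 1 of 62 events was called (1.61%, against 2.11% of all events). This was the 167 nt exon 7 of CLK2 (chr1:155236520-155236686), which fell from 0.906, 0.909, and 0.911 to 0.803, 0.802, and 0.802 (ΔΨ = -0.106 ± 0.00146, adjusted p = 0.0301). The groups were tight and far apart, yet the call was lost in each fit that left out 1 library, with adjusted p = 0.130 without 2-day library b and over 0.05 in all 6 fits. Of the mRNA export list, 8 of 204 events were called (3.92%, against the same 2.11%), 6 higher. Of 18 tested RI of that list, 4 were called higher, in NXF1, DDX39A, CHTOP, and DDX39B, where 4.49% of all RI were. In NXF1, CHTOP, and DDX39B the 2-day mean was below DMSO. Means in DMSO, at 2 days, and at 4 days were 0.201, 0.166, and 0.214 for NXF1. They were 0.0871, 0.0645, and 0.0862 for CHTOP and 0.188, 0.153, and 0.177 for DDX39B. DDX39A had 0.0667, 0.103, and 0.153, above DMSO on both days. An alternative donor of ZC3H11A (long exon chr1:203765421-203765729) fell from 0.700, 0.704, and 0.810 to 0.598, 0.531, and 0.589 (ΔΨ = -0.165 ± 0.0416, adjusted p = 0.0338), and an alternative acceptor of THOC2 (long exon chrX:122744769-122744814) from 0.901, 0.887, and 0.897 to 0.835, 0.782, and 0.822 (ΔΨ = -0.0818 ± 0.0164, adjusted p = 0.0308). Both calls were lost without 1 library, with adjusted p = 0.272 without 2-day library c and over 0.05 in all 6 fits for ZC3H11A and adjusted p = 0.224 without 4-day library b and over 0.05 in all 6 fits for THOC2.

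Of the PRMT list, 1 of 115 events was called (0.870%, against 2.11% of all events). It was the 109 nt exon 2 of PRMT2, in the 5′ UTR (chr21:48056351-48056459), which rose from 0.312, 0.201, and 0.238 to 0.432, 0.511, and 0.412 (ΔΨ = 0.201 ± 0.0445, adjusted p = 2.15e-09), and the 2-day libraries were near DMSO (0.269 ± 0.0361). Of the decay factors, 3 of 146 events were called (2.05%), near the 2.11% of all events, and all 3 were higher. Both paralogues of the exon junction protein MAGOH were among them, which share sequence, so their counts are uncertain. An exon of MAGOHB (chr12:10761697-10761982) rose from 0.0445, 0.0284, and 0.0342 to 0.0876, 0.0764, and 0.0850 (ΔΨ = 0.0473 ± 0.00580, adjusted p = 4.36e-07). Exon 3 of MAGOH (chr1:53699214-53699324) rose from 0.772, 0.715, and 0.822 to 0.831, 0.828, and 0.847 (ΔΨ = 0.0652 ± 0.0315, adjusted p = 0.0112), a call lost without 1 library (adjusted p = 0.475 without 2-day library b and also over 0.05 without 2-day a and 4-day c).

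Among genes of apoptosis, 10 of 265 events were called (3.77%, against 2.11% of all events), 8 higher and 2 lower. BAX, a pore-forming protein of the outer mitochondrial membrane, had 6 of them, which partly share reads. Its intron 5 in BAX-202 (chr19:49464172-49464788) fell from 0.434, 0.478, and 0.470 to 0.307, 0.310, and 0.339 (ΔΨ = -0.142 ± 0.0168, adjusted p = 9.01e-24), to below DMSO (0.491 ± 0.0375). The 2-day libraries of intron 5 had stood near DMSO. The other called events of BAX rose. Among them, intron 2 (chr19:49458857-49458943) went from 0.237, 0.268, and 0.268 to 0.301, 0.300, and 0.333 (ΔΨ = 0.0537, adjusted p = 0.025). Its DMSO value was 0.146 ± 0.0321, so the called introns of BAX moved in opposite directions. An alternative donor in CASP8, an initiator caspase (long exon chr2:202141550-202141827), rose from 0.485, 0.484, and 0.381 to 0.570, 0.603, and 0.584 (ΔΨ = 0.136 ± 0.0359, adjusted p = 0.0276), with DMSO at 0.186 ± 0.0183, a call lost without 1 library (adjusted p = 0.282 without 2-day library c and also over 0.05 without 2-day a, 4-day a, and 4-day b).

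DNA repair genes had 5 of 922 events called (0.542%, against 2.11% of all events). In LIG1, a DNA ligase, an alternative acceptor (long exon chr19:48640779-48641016) rose from 0.253, 0.270, and 0.231 to 0.420, 0.536, and 0.434 (ΔΨ = 0.212 ± 0.0382, adjusted p = 0.00943), with DMSO at 0.0542 ± 0.00611. An exon of ATRIP, the partner of the ATR kinase (chr3:48505981-48506061), fell from 1.00, 0.936, and 0.854 to 0.736, 0.680, and 0.519 (ΔΨ = -0.285 ± 0.0776, adjusted p = 0.00826), with as few as 30 reads in a library. Mitosis genes had 17 of 760 events called (2.24%), near the same 2.11%, and 15 of them were higher, where 1295 of all 1854 called events were. The 98 nt exon 2 of AURKA, in the 5′ UTR of this mitotic kinase (chr20:54963743-54963840), rose from 0.222, 0.218, and 0.235 to 0.429, 0.513, and 0.363 (ΔΨ = 0.210 ± 0.0435, adjusted p = 0.00109). Each of these calls was lost without 1 library, at adjusted p = 0.147 without 4-day library b and also over 0.05 without 2-day a and 2-day c for LIG1, adjusted p = 0.199 without 2-day library a and also over 0.05 without 2-day b and 4-day c for ATRIP, and adjusted p = 0.0633 without 4-day library b for AURKA.

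Among the changes of splice sites are several where neighbouring sites are a few bases apart, and their sequences show what is gained or lost. Capitals mark the bases between the sites, which belong to the exon only in the long form.
CENPE acceptors (chr4:104059601-104059621, minus strand): tttttaccaaagCAGgaccga
YAP1 donors (chr11:102076803-102076823, plus strand): cagGTGAGGCCACAGgttaga
UBR3 donors (chr2:170863698-170863718, plus strand): ccaGTAAGCATCAGTgtaagg
PAXBP1 donors (chr21:34127518-34127543, minus strand): caaGTCAGTCCATCTTGAAGgttttt

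In CENPE, a kinesin of the kinetochore, the 3 bases of a tandem acceptor were included with Ψ of 0.335, 0.297, and 0.291 at 2 days and 0.720, 0.567, and 0.651 at 4 days (ΔΨ = 0.338 ± 0.0465, adjusted p = 0.0263). The groups did not overlap, but the lowest library had 21 reads and the call was lost without 1 library (adjusted p = 0.305 without 4-day library a and also over 0.05 without 2-day a, 2-day b, 2-day c, and 4-day c). The 17 bases of PAXBP1 rose from 0.445, 0.438, and 0.373 to 0.729, 0.689, and 0.699 (ΔΨ = 0.287 ± 0.0260, adjusted p = 5.81e-06), and this call held without any 1 library. The 2 other donor pairs moved toward the short form. The 12 bases of UBR3, a ubiquitin ligase, fell from 0.518, 0.448, and 0.387 to 0.156, 0.269, and 0.250 (ΔΨ = -0.226 ± 0.0513, adjusted p = 0.00232). Those of YAP1, a coactivator of the Hippo pathway, which also keep the frame, fell from 0.572, 0.410, and 0.371 to 0.175, 0.302, and 0.215 (ΔΨ = -0.220 ± 0.0721, adjusted p = 0.0273). The calls of UBR3 and YAP1 did not hold when 1 library was left out, with adjusted p = 0.170 without 2-day library a and also over 0.05 without 4-day a for UBR3 and adjusted p = 0.388 without 2-day library a and also over 0.05 without 2-day c and 4-day a for YAP1.

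The A3SS and A5SS of C1orf63 and the A3SS of SIRT7 cover the same ground as the RI above and share reads with it, and they rose with ΔΨ of 0.349, 0.263, and 0.263. The A5SS of C1orf63 lost its call without 1 library (adjusted p = 0.170 without 2-day library a and also over 0.05 without 2-day c, 4-day a, and 4-day b). An A3SS of GAS5 (long exon chr1:173833395-173834420) fell from 0.907, 0.880, and 0.868 to 0.702, 0.644, and 0.681 (ΔΨ = -0.209 ± 0.0205, adjusted p = 1.15e-07), from 0.997 ± 0.00438 in DMSO. The A3SS of SMYD2, a lysine methyltransferase (long exon chr1:214504293-214507651), fell from 0.832, 0.865, and 0.719 to 0.608, 0.568, and 0.534 (ΔΨ = -0.235 ± 0.0490, adjusted p = 0.0383), and that of TMEM91 (long exon chr19:41889466-41889988) from 0.696, 0.914, and 0.688 to 0.432, 0.478, and 0.566 (ΔΨ = -0.274 ± 0.0838, adjusted p = 0.0483). Both were lost without 1 library, at adjusted p = 0.222 without 2-day library b and also over 0.05 without 2-day a, 4-day a, 4-day b, and 4-day c for SMYD2 and adjusted p = 0.356 without 2-day library b and also over 0.05 without 2-day a, 2-day c, 4-day a, and 4-day b for TMEM91.

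Mutually exclusive exons changed in ATE1, TMX2, TXNRD1, and ERICH1. ATE1 encodes the arginyltransferase of the N-degron pathway and is known for a pair of exclusive exons of 129 nt. Ψ of the exon at chr10:123659381-123659509 was 0.338, 0.368, and 0.268 at 2 days and 0.564, 0.470, and 0.566 at 4 days (ΔΨ = 0.209 ± 0.0434, adjusted p = 1.48e-07), with DMSO at 0.186 ± 0.0136. The order was DMSO, then 2 days, then 4 days in every library. In TXNRD1, a thioredoxin reductase, the exon at chr12:104684771-104684882 fell from 0.692, 0.715, and 0.684 to 0.489, 0.479, and 0.577 (ΔΨ = -0.182 ± 0.0325, adjusted p = 1.68e-06). The exon of TMX2, a membrane protein of the thioredoxin family (chr11:57505308-57505498), rose from 0.271, 0.172, and 0.228 to 0.532, 0.344, and 0.377 (ΔΨ = 0.194 ± 0.0646, adjusted p = 0.00276). That of ERICH1 (chr8:665861-666007) fell from 0.710, 0.769, and 0.652 to 0.499, 0.449, and 0.542 (ΔΨ = -0.214 ± 0.0430, adjusted p = 0.0009). The last pair lost its calls without 1 library, at adjusted p = 0.226 without 4-day library a and also over 0.05 without 2-day b for TMX2 and adjusted p = 0.0568 without 2-day library b for ERICH1.

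The same days were compared in cells given a single inhibitor, whose libraries are separate from those of co-treatment. With GSK591 alone, 180 of 3712 RI were called between 4 and 2 days (4.85%), and with MS023 alone 9 of 3802 (0.237%). For SE these were 465 of 52503 (0.886%) and 110 of 54375 (0.202%). The 147 RI called higher with GSK591 that were also tested here had a median co-treatment ΔΨ of 0.0355, and 139 of them (94.6%) were positive, against 54.9% of the 3605 RI tested in both. The 31 RI called lower had a median of -0.0298, with 3 positive. Across these 3605 RI, the Spearman correlation of the co-treatment and GSK591 changes was 0.269, and across 3637 RI that with MS023 was 0.0537. For SE, the correlation was 0.126 across 47715 events with GSK591 and 0.0664 across 47970 with MS023. The correlation is over events, which share libraries within each contrast, and is a description.

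**Figure D4:**
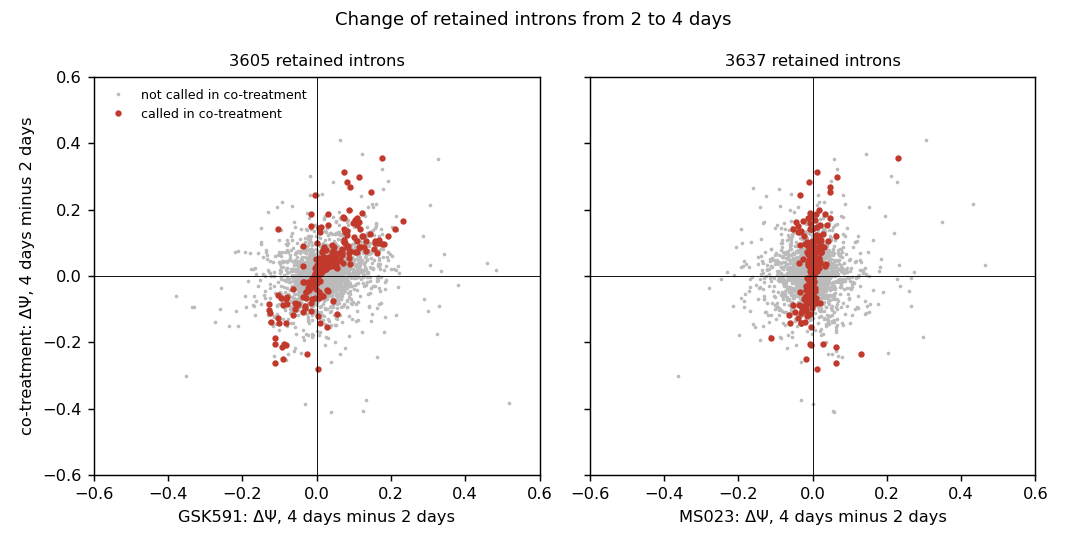
ΔΨ of each RI between 4 and 2 days of co-treatment (vertical axes) against its ΔΨ between 4 and 2 days of GSK591 alone (left, 3605 RI) or MS023 alone (right, 3637 RI), with RI called in co-treatment in red and the others in grey. The red points slope upward at left, where the Spearman correlation over all points is 0.269, and stand in a narrow vertical band at right, where it is 0.0537.

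The events that a single inhibitor had changed after 2 days, relative to 4-day DMSO, were followed under co-treatment. In that comparison GSK591 had 26.8% of RI called and MS023 had 5.86%. The 921 RI called higher with GSK591 had a median co-treatment ΔΨ of 0.00860 and 66.4% were positive, against 0.00176 and 55.0% of the 3645 RI tested in both. The 168 RI called lower with MS023 had a median of 0.00706 and 68.5% were positive, against 0.00174 and 54.8% of 3673. In SE the share called with GSK591 was 8.30%. The 948 SE called higher with GSK591 had a median co-treatment ΔΨ of 0.0121, and the 4129 called lower had 0.00140, against 0.00163 over 52726. These groupings use no co-treatment library and are given without a test.

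The day change itself differed between co-treatment and a single inhibitor in few events. In a model with an interaction term, 3 of 3698 RI differed from the change with GSK591 (0.0811%) and 56 of 3736 from that with MS023 (1.50%), of which 42 had a higher ΔΨ under co-treatment. For SE, 21 of 54616 differed from GSK591 (0.0385%) and 63 of 55291 from MS023 (0.114%). With limma on the log2 odds, 0 passed in each of the 4 tests, with 262, 356, 3517, and 3617 at an unadjusted p under 0.05. With each event's own dispersion where that was larger, an alternative chosen after seeing the data, the counts were 0, 26, 8, and 44. Leaving out 1 library gave 0 to 4, 29 to 46, 3 to 25, and 40 to 60. CLSTN1 exon 11 fell under co-treatment as above, and was at 0.497, 0.430, and 0.394 at 2 days and 0.405, 0.407, and 0.330 at 4 days of GSK591 (difference of the changes -0.198, adjusted p = 0.0121, and up to 0.0717 without GSK591+MS023 4 days library a). CIZ1 exon 4 was at 0.832, 0.867, and 0.879 and 0.879, 0.872, and 0.868 with MS023 (difference -0.253, adjusted p = 0.0139, and up to 0.0906 without MS023 2 days library a). Intron 21 of PLXNB2, a plexin receptor (chr22:50719929-50719994), rose under co-treatment from 0.470, 0.477, and 0.531 to 0.649, 0.636, and 0.694, and was at 0.126, 0.136, and 0.140 and 0.0868, 0.0972, and 0.141 with MS023 (difference 0.192, adjusted p = 0.0137, and at most 0.0489 without MS023 4 days library b). A difference not called does not show that the changes were equal.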

How the data were processed

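Poly(A)-RNA seq libraries of A549 cells were analysed, with 3 libraries each of GSK591+MS023 for 2 days and for 4 days, and 3 each of DMSO for 4 days, GSK591 for 2 and 4 days, and MS023 for 2 and 4 days. The authors deposited rMATS tables on hg19 that list, for each event, whole-number read counts of the inclusion form and of the skipping form per library (junction reads and reads on the alternative segment) with the effective length of each form. Per the study's methods, reads were aligned with STAR, and the submitters' processing notes name STAR 2.4.2a, Trim Galore 0.6.5, Picard 2.3.0, and deepTools 3.3.1. The version of rMATS differs between parts of the methods. Columns with the authors' own p-values, FDR, and inclusion differences hold their findings and were not used.

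The 2-day and 4-day libraries stand in separate tables, each set against the same DMSO libraries, so events were matched on identical type, chromosome, strand, and coordinates. This left 4356 RI, 79477 SE, 17415 MXE, 6999 A3SS, and 4626 A5SS. DMSO counts and effective lengths were the same in both tables for every matched event, and the gene symbol differed for 9. For MXE, the inclusion form is the first exon on the plus strand and the second on the minus strand, as was checked against the SE counts. Events with at least 10 reads in every library of a fit were tested, and events with 0 reads of one form over all libraries of a fit were left out. Each event was fitted with a quasi-binomial logistic model of inclusion and skipping counts in R 4.3.3, the dispersion was moderated with limma 3.58.1 (squeezeVar) and held at 1 or above, and the F test was adjusted by Benjamini-Hochberg within the event type, with calls at an adjusted p under 0.05. The same model with an interaction of day and treatment gave the differences from single inhibitors. The scripts were tested on simulated data. Between libraries of one group, chi-square per degree of freedom was 1.99 to 2.66, so no library was a copy of another. More reads narrow the error of Ψ, and counting error is only part of it.

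Named events had a call, at least 50 reads in each of the 6 libraries, and groups that did not overlap. Of these, 1 event per gene and type was kept, and the largest changes were taken in each direction (6 RI, 5 SE, and 2 of each other type). For each list, the 2 called events with the largest change were added. Also added were the shortest RI spanned by the RT-qPCR primers in each of GAS5, ANKZF1, and NOP2, and 3 called events of each interaction test. The lists were the Sm core and U1 snRNP, the U2 snRNP and U2AF, SR and TRA2 proteins, hnRNPs, the CLK, SRPK, and DYRK kinases, mRNA export, PRMTs, apoptosis, snoRNA host lncRNAs, nonsense-mediated decay, DNA repair, and mitosis. Some items that the rule selects are not reported here. The comparison, the events, and the lists were chosen with earlier results of these data known. Transcript structure is from GENCODE v44lift37 and sequences are from GRCh37. Alternatives were another read minimum, limma on log2 odds with 0.5 added to each count, adjustment over all types, a minimum difference of 0.1, leaving out each library, and other dispersions.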

Additional observations from a re-analysis of the deposited data

Results flagged for a closer look

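Each result here has a change from 2 to 4 days that differed between co-treatment and a single inhibitor in the interaction model, and no explanation was tested. The second adjusted p is the highest on leaving out 1 library. Against GSK591, the RI of MYL6, a myosin light chain, had a ΔΨ of 0.0299 under co-treatment and -0.0366 with GSK591 (0.997 to 0.960), a difference of 0.0665 (adjusted p = 0.00676, and 0.0647 without GSK591+MS023 2 days library a). Intron 8 of MGAT4B, a glycosyltransferase, had a ΔΨ of 0.00821 under co-treatment and 0.0715 with GSK591 (0.125 to 0.197), a difference of -0.0633 (adjusted p = 0.0281, and 0.199 without GSK591+MS023 2 days library b). Of these introns, MGAT4B was not called under co-treatment alone (adjusted p = 0.751). The SE of BBIP1 had a ΔΨ of 0.107 under co-treatment and -0.143 with GSK591 (0.747 to 0.605), a difference of 0.250 (adjusted p = 0.0376, and 0.136 without GSK591+MS023 2 days library c). Exon 9 of NSMCE4A, a subunit of a complex that maintains chromosome structure, had a ΔΨ of 0.135 under co-treatment and -0.0778 with GSK591 (0.943 to 0.865), a difference of 0.213 (adjusted p = 0.0456, and 0.196 without GSK591 4 days library c). Exon 11 of CLSTN1 had a ΔΨ of -0.258 under co-treatment and -0.0601 with GSK591 (0.441 to 0.381), a difference of -0.198 (adjusted p = 0.0121, and 0.0717 without GSK591+MS023 4 days library a). In MYL6, BBIP1, and NSMCE4A the ΔΨ had opposite signs, and BBIP1 too was not called under co-treatment alone (adjusted p = 0.198).

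Against MS023, intron 6 of QTRT1, a subunit of the tRNA queuine transferase, had a ΔΨ of 0.163 under co-treatment and -0.0445 with MS023 (0.238 to 0.193), a difference of 0.208 (adjusted p = 0.0202, and 0.0829 without GSK591+MS023 4 days library b). The 370 bp intron of GAS5 had a ΔΨ of -0.210 under co-treatment and -0.00460 with MS023 (0.855 to 0.850), a difference of -0.205 (adjusted p = 0.0272, and 0.0946 without MS023 2 days library a). Intron 21 of PLXNB2 had a ΔΨ of 0.166 under co-treatment and -0.0258 with MS023 (0.134 to 0.108), a difference of 0.192 (adjusted p = 0.0137, and 0.0489 without MS023 4 days library b). Exon 6 of BRF1, a factor of the polymerase that makes tRNAs, had a ΔΨ of 0.218 under co-treatment and -0.0734 with MS023 (0.569 to 0.496), a difference of 0.291 (adjusted p = 0.00988, and 0.0531 without GSK591+MS023 2 days library a). Exon 6 of MYH10, a 30 nt exon of non-muscle myosin, had a ΔΨ of 0.221 under co-treatment and -0.0425 with MS023 (0.508 to 0.466), a difference of 0.263 (adjusted p = 0.0437, and 0.157 without GSK591+MS023 4 days library a). Exon 4 of CIZ1 had a ΔΨ of -0.240 under co-treatment and 0.0137 with MS023 (0.859 to 0.873), a difference of -0.253 (adjusted p = 0.0139, and 0.0906 without MS023 2 days library a).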

How the results depend on the processing

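No ΔΨ of a named event and no difference of medians changed sign under an alternative that was run, but the balance of A3SS calls did, from 43 higher and 33 lower to 14 and 16 without 2-day library c. The number of calls depended most on how the spread between libraries was modelled. Limma on the log2 odds takes its error from the spread between libraries, drawn toward that of all events of the type. It weighs each library the same whatever its reads. With limma, 0 events were called in each of the 5 event types and in each of the 4 interaction tests. By event type, 479 RI, 4398 SE, 1322 MXE, 384 A3SS, and 266 A5SS had an unadjusted limma p under 0.05. With a minimum difference of 0.1 the counts were 66 RI, 469 SE, 47 MXE, 29 A3SS, and 19 A5SS. Both other dispersions were chosen after seeing the data. With each event's own dispersion where larger, 179 RI, 764 SE, 112 MXE, 31 A3SS, and 45 A5SS were called, and in the interaction tests 0 RI and 8 SE against GSK591 and 26 RI and 44 SE against MS023. With a trend of the dispersion on depth, 226 RI, 669 SE, 185 MXE, 45 A3SS, and 43 A5SS were called. Leaving out 1 library gave 144 to 217 RI, 541 to 988 SE, 112 to 151 MXE, 30 to 59 A3SS, and 24 to 57 A5SS, with fewer samples in each fit. For the interaction tests it gave 0 to 4 RI and 3 to 25 SE against GSK591 and 29 to 46 RI and 40 to 60 SE against MS023. A read minimum of 20, no read minimum, and adjustment over all 5 types left every count within 1.5 times the reported one. For events named by the rule, 299 of the fits without 1 library left the call or its absence as it was and 109 lost it, and none of the 68 events was called with limma, 64 of which had been called. The difference of the RI medians, 0.00375, was 0.000655 (exact permutation p = 0.8) without 2-day library c, 0.00208 (p = 0.7) without 4-day library b, and 0.00639 (p = 0.1) without 2-day library a. The p was also 0.1 with the mean over events and with no length correction. The test of edgeR that had been planned was not run. No paired analysis was possible because the columns of the tables carry no replicate numbers. Events of the same gene often share reads, so counts of events are not counts of separate changes. Depth limits the events with few reads, where a difference may not have been detectable.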

Other observations

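The events here were chosen from the lists after their values were seen, and they carry no further test. Of the mitosis list, 2.24% of events were called, near the 2.11% of all events, and its called events include an exon of AURKA that fell (ΔΨ = -0.0212). The 312 nt exon 19 of KIF23, a kinesin of the midbody, had Ψ of 0.136 ± 0.00659 in DMSO, 0.249 ± 0.0157 at 2 days, and 0.346 ± 0.0343 at 4 days (adjusted p = 0.000827). In PRC1, which bundles microtubules at the spindle midzone, the 42 nt exon 14 had 0.614 ± 0.0279, 0.476 ± 0.00571, and 0.609 ± 0.0394 in the same order (adjusted p = 0.0165), so the 4-day level was near that of DMSO. A 102 nt exon of CENPK, a kinetochore protein, had 0.817 ± 0.0211, 0.726 ± 0.0501, and 0.896 ± 0.0381 (adjusted p = 0.0180).

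Over the 111 SE of the snoRNA host list the median ΔΨ was -0.000176, and of its called exons 1, in SNHG1, fell (ΔΨ = -0.0587, adjusted p = 0.00127). Those of ZFAS1, SNHG15, and SNHG6 rose. The 62 nt exon 4 of ZFAS1 had 0.627 ± 0.0246 in DMSO, 0.585 ± 0.0160 at 2 days, and 0.688 ± 0.00959 at 4 days (adjusted p = 5.44e-20). The 70 nt exon 3 of SNHG15 had 0.964 ± 0.0267, 0.783 ± 0.00885, and 0.918 ± 0.0225 (adjusted p = 0.000688). The 112 nt exon 2 of SNHG6 had 0.808 ± 0.0200, 0.689 ± 0.0387, and 0.789 ± 0.0281 (adjusted p = 3.59e-14). In these 3 exons the 2-day mean was below DMSO and below the 4-day mean, and the 2-day and 4-day libraries did not overlap.

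In POLB, the polymerase of base excision repair, the 58 nt exon 2 had 0.368 ± 0.0631 in DMSO, 0.286 ± 0.0232 at 2 days, and 0.475 ± 0.0949 at 4 days (adjusted p = 0.0177). Its 105 nt exon 7 had 0.291 ± 0.0863, 0.309 ± 0.0653, and 0.505 ± 0.0920 (adjusted p = 0.00127). An alternative donor of U2AF2, the large subunit of U2AF, had 0.186 ± 0.00589, 0.298 ± 0.0247, and 0.368 ± 0.0166 (adjusted p = 2.53e-07), and both days were above DMSO. Whether these calls hold without 1 library was not tested.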
